A study of Drosophila melanogaster with 3 samples.

Results

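Peaks under 10 nt wide were taken from the 3 deposited peak lists of RNA bound by the exon junction complex (EJC) in Drosophila melanogaster S2 cells, an established embryonic line with macrophage-like properties. A peak was a member if its end minus its start in the deposited list was under 10, which gave widths of 1 to 9 nt and 3661 members among 87432 peaks. The tiny peaks were set apart as candidate overhangs of spliced fragments, that is, as the short end of an RNA fragment that reaches across an exon-exon junction. Width alone chose the members, so their widths and numbers are a description, and whether a given tiny peak is such an overhang was not tested.

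The EJC is placed on mRNA by the spliceosome, a short distance upstream of an exon-exon junction, and is removed when a ribosome passes. eIF4AIII is the DEAD-box protein that clamps the RNA, Y14 locks the clamp together with its partner Mago, and Btz (Barentsz) is a further core protein that joins the complex on spliced mRNA. A fragment protected by the complex that runs past the junction holds the first bases of the next exon, and on the genome these bases lie apart from the rest of the fragment, on the far side of the intron. Introns of Drosophila are often short, which puts both sides of many junctions close together on the chromosome.

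The 3 purifications were tagged eIF4AIII followed by endogenous Y14, tagged Btz followed by endogenous eIF4AIII, and tagged Y14 followed by endogenous eIF4AIII. They are called eIF4AIII/Y14, Btz/eIF4AIII and, for the last, Y14/eIF4AIII. All 3 used S2 cells that made the tagged protein from a copper-inducible construct, were grown for 72 h and were then kept in 100 µg/ml cycloheximide, which stalls ribosomes, for 2 h. RNA-protein complexes were taken by a Flag resin, selected on oligo(dT) beads, digested for 15 min with micrococcal nuclease and taken again with the antibody against the endogenous protein. The nuclease was used at 0.5 units for eIF4AIII/Y14 and Btz/eIF4AIII and at 0.3 units for Y14/eIF4AIII, so the dose cannot be told apart from the purification there. The track line of the list deposited for eIF4AIII/Y14 names Y14 alone, and that list is called by its sample label throughout. Each purification had 1 library, with no untagged or input library among those used here, so no difference between lists has a replicate check and no p-value is given.

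Each peak carries 1 value, the mean number of reads over its bases, called depth here. Depth was not scaled to the size of the library, so it is compared within a list only. Intervals are exact (Clopper-Pearson) 95% intervals over peaks, treat peaks as independent and cover counting error only. Sequence names follow release 5 of the genome, positions are counted from 1, and upstream and downstream follow the deposited strand, taken as the strand of the RNA. A gap is the run of bases between neighbouring peaks of the same strand in the same list, and the shortest gap in each list was 25 nt. Genes were not assigned and the markers of S2 cells were not checked, because the annotation at hand is of release 6.

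The eIF4AIII/Y14 list held 1759 tiny peaks among 34945, the largest number and share, 5.03% (4.81 to 5.27%). In Btz/eIF4AIII there were 1418 among 36393, 3.9% of the list (3.70 to 4.10%). In Y14/eIF4AIII there were 484 among 16094, 3.01% (2.75 to 3.28%). These intervals count peaks within 1 library each, so they do not say whether the purifications differ.

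Tiny peaks had a lower median depth than their lists as a whole, but not all of them were shallow. The median depth of the eIF4AIII/Y14 tiny peaks was 36 reads per base (lowest 2.8, highest 1140). It was 21 for Btz/eIF4AIII (lowest 1.86, highest 2976) and 14.5 for Y14/eIF4AIII (lowest 1.67, highest 2363). The medians over all peaks of the same lists were 52, 95.3 and 34 reads per base. Low depth was not particular to tiny peaks. Peaks of 10 to 14 nt had medians of 28, 34 and 17.5 reads per base. Those of 15 to 19 nt had lower medians than the tiny peaks, at 16, 17 and 6. Those of 20 to 29 nt had 67.9, 10 and 6. Of the tiny peaks, 38.3%, 32.7% and 36.6% lay above their list's median. They covered 7969, 7469 and 2318 nt in the 3 lists, and held 0.258%, 0.161% and 0.156% of the depth summed over bases. Their median width was 4, 5 and 5 nt.

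Tiny peaks were spread over the genome. The chromosome arms 2L, 2R, 3L, 3R, 4 and X held 99.3%, 99.5% and 98.8% of the tiny peaks of eIF4AIII/Y14, Btz/eIF4AIII and Y14/eIF4AIII, and 99%, 98.6% and 96.5% of all peaks. By chromosome arm they made up between 4.65 and 5.50% of the eIF4AIII/Y14 peaks. For Btz/eIF4AIII this share lay between 3.74 and 5.88%, and for Y14/eIF4AIII between 2.88 and 4.78%. On the remaining sequences it was lower, at 3.55%, 1.40% and 1.07%.

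Most tiny peaks had a close neighbour on their own strand, and the distance to it was most often 50 to 75 nt. The median distance to the nearest same-strand peak of the list was 64, 64 and 66 nt in the lists as ordered above. Over all peaks of the same lists it was 169, 107 and 364 nt. Only 37 tiny peaks of eIF4AIII/Y14 (2.10%) had their nearest peak over 2000 nt away, against 10.6% of all its peaks. In Btz/eIF4AIII these were 26 peaks (1.83%, against 7.7% of all peaks), and in Y14/eIF4AIII 26 peaks (5.37%, against 24% of all peaks).

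The nearest peak lay upstream more often than downstream. In eIF4AIII/Y14 it was upstream for 1144 tiny peaks, downstream for 611 and equally far on both sides for 4. In Btz/eIF4AIII the numbers were 909, 508 and 1. In Y14/eIF4AIII the sides were nearly even, at 258 upstream, 225 downstream and 1 tie. Where the nearest peak was 50 to 75 nt away, as it was for 994, 799 and 268 tiny peaks, it lay upstream for 81.3%, 78.1% and 61.9% of those without a tie.

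Counted on either side, 1071 of 1759 tiny peaks of eIF4AIII/Y14 bordered a gap of 50 to 75 nt, which is 60.9% (58.6 to 63.2%) against 18.9% of all peaks of that list. In Btz/eIF4AIII 875 of 1418 did, 61.7% (59.1 to 64.2%) against 31.9% of all peaks. In Y14/eIF4AIII 272 of 484 did, 56.2% (51.6 to 60.7%) against 13.7%. All 3 intervals lie above the share over all peaks of their list.

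**Figure D1:**
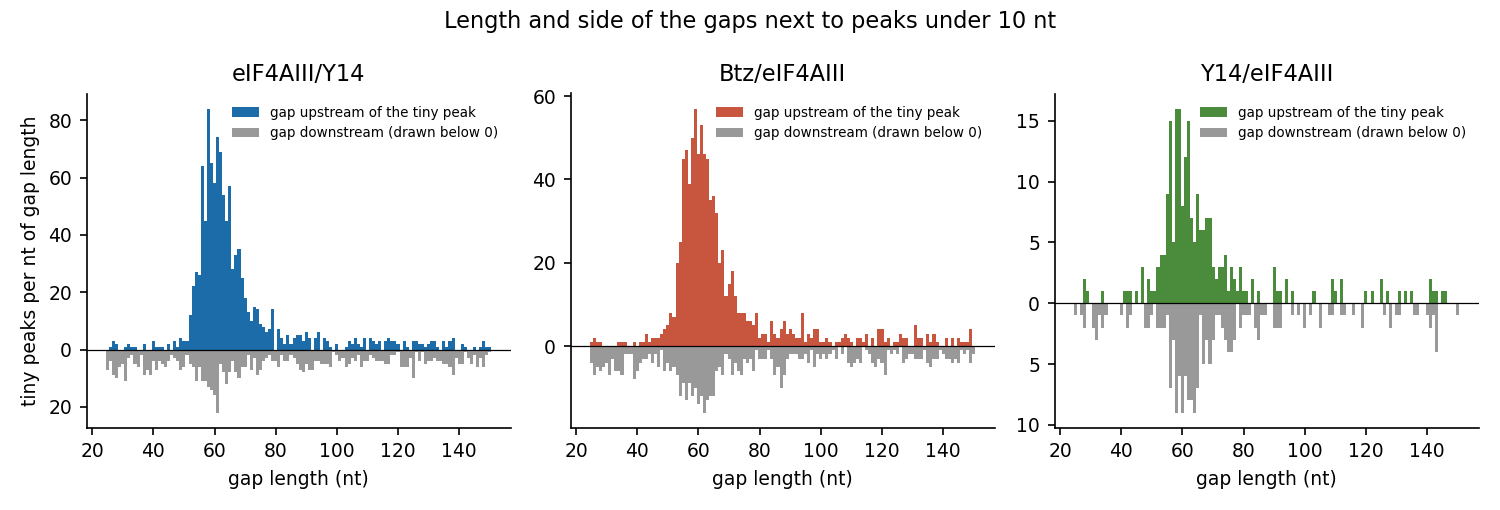
Gaps next to peaks under 10 nt, by gap length in nt (horizontal) and number of tiny peaks per nt of gap length (vertical), 1 panel per list. Coloured bars count gaps upstream of the tiny peak and grey bars, drawn below 0, gaps downstream. The coloured bars stand highest at 50 to 75 nt in each list and exceed the grey bars there, less so in Y14/eIF4AIII.

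The plot of gap lengths shows 1 narrow hump for all 3 lists. The most frequent length of a gap with a tiny peak at a border was 60 nt in each list, after a running mean over 5 lengths. Gaps with no tiny peak were much the same in this, with 60, 60 and 63 nt. Annotated introns of release 6 on the same chromosome arms, used here for their lengths only, also have their most frequent length at 60 nt, and 43.3% of the 60385 introns are 50 to 75 nt long. In that annotation 58 of 39978 internal exons are under 10 nt. Its introns and exons were not placed against the peaks, so whether a given tiny peak is such an exon was not tested. The members take up a small part of the lists and a larger part of these gaps. Of the gaps of 50 to 75 nt, a tiny peak stood at a border of 1118 in eIF4AIII/Y14 (32.0% of 3497), 935 in Btz/eIF4AIII (14.9% of 6288) and 273 in Y14/eIF4AIII (23.7% of 1154).

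The tiny peak was mostly the downstream peak of the pair at such a gap. Over all peaks the share on the downstream side is 50% in each list, because every gap has 1 border on each side. Leaving out tiny peaks with such a gap on both sides, 853 of eIF4AIII/Y14 lay downstream of the gap and 163 upstream, so that 84.0% (81.6 to 86.2%) were downstream. In Btz/eIF4AIII 659 lay downstream and 155 upstream, 81.0% (78.1 to 83.6%). In Y14/eIF4AIII 164 lay downstream and 100 upstream, 62.1% (56.0 to 68.0%), the lowest share of the 3 lists. Peaks of 10 to 14 nt were mostly downstream as well, at 78.5%, 85.4% and 58.8% in the 3 lists. Those of 15 to 19 nt had 57.2%, 87.4% and 67.0%. Of the peaks of 30 nt or more, 36.2%, 40.2% and 45.4% were downstream of the gap. This is no separate result, because the share over all peaks is fixed and wider peaks as a whole must balance the narrower ones.

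Gaps of other lengths differed in side. A tiny peak has a gap on either side and can count in 2 classes. Gaps of 25 to 49 nt bordered 9.49%, 9.66% and 6.61% of tiny peaks, near the 11%, 12.4% and 7.79% of all peaks, and here the tiny peak lay upstream of the gap more often, with 26 downstream and 138 upstream in eIF4AIII/Y14. Btz/eIF4AIII had 27 and 109, and Y14/eIF4AIII had 11 and 19. Gaps of 76 to 99 nt bordered 11.5%, 11.99% and 9.504% of tiny peaks, against 9.19%, 10.3% and 5.98% of all peaks. Of those with such a gap on 1 side, 48.2%, 51.8% and 44.2% lay downstream of it. Where a peak at this distance was the nearest, it was upstream of 81 tiny peaks and downstream of 43 in eIF4AIII/Y14. Btz/eIF4AIII had 66 and 37, and Y14/eIF4AIII had 18 and 18. Gaps of 100 to 500 nt bordered 49.01%, 45.6% and 33.1%, where 55.8%, 53% and 39.7% of all peaks did. Of tiny peaks with such a gap on 1 side, 28.8%, 31.9% and 42.9% lay downstream of it. The sides were closer to even among tiny peaks whose nearest peak was 100 to 500 nt away. That nearest peak was upstream for 48.8%, 51.1% and 45.9% of them. Gaps over 500 and up to 2000 nt bordered 24.9%, 25.9% and 25.6%, where 34.5%, 29.8% and 35.6% of all peaks did.

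The limit of 10 nt did not mark a change in these measures, and a sharper one was seen at 15 nt, in width classes chosen after seeing the data. Peaks of 9 and 10 nt, just inside and just outside the limit, bordered a gap of 50 to 75 nt in 62.5% and 62.9% of cases in eIF4AIII/Y14. Btz/eIF4AIII had shares of 64.2% and 58.6%. Y14/eIF4AIII had 54.8% and 38.5%, from only 42 and 39 peaks. Over the 3 lists their median depths were 21.6 and 28, 38 and 28.9, and 19.9 and 15 reads per base. Peaks of 10 to 14 nt resembled the tiny peaks, with 59.7%, 64.3% and 55.4% beside such a gap.

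At 15 nt the share dropped and the number of peaks rose together. From a width of 14 nt to 15 nt the share beside a gap of 50 to 75 nt went from 50.0% to 15.0% in eIF4AIII/Y14, from 63.0% to 48.2% in Btz/eIF4AIII and from 48.8% to 13.1% in Y14/eIF4AIII. The number of peaks went from 78 to 313, from 154 to 228 and from 43 to 176. Btz/eIF4AIII stepped down least, and its peaks of 15 to 19 nt bordered such a gap in 37.2% of cases against 10.5% and 7.77% in the other lists.

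**Figure D2:**
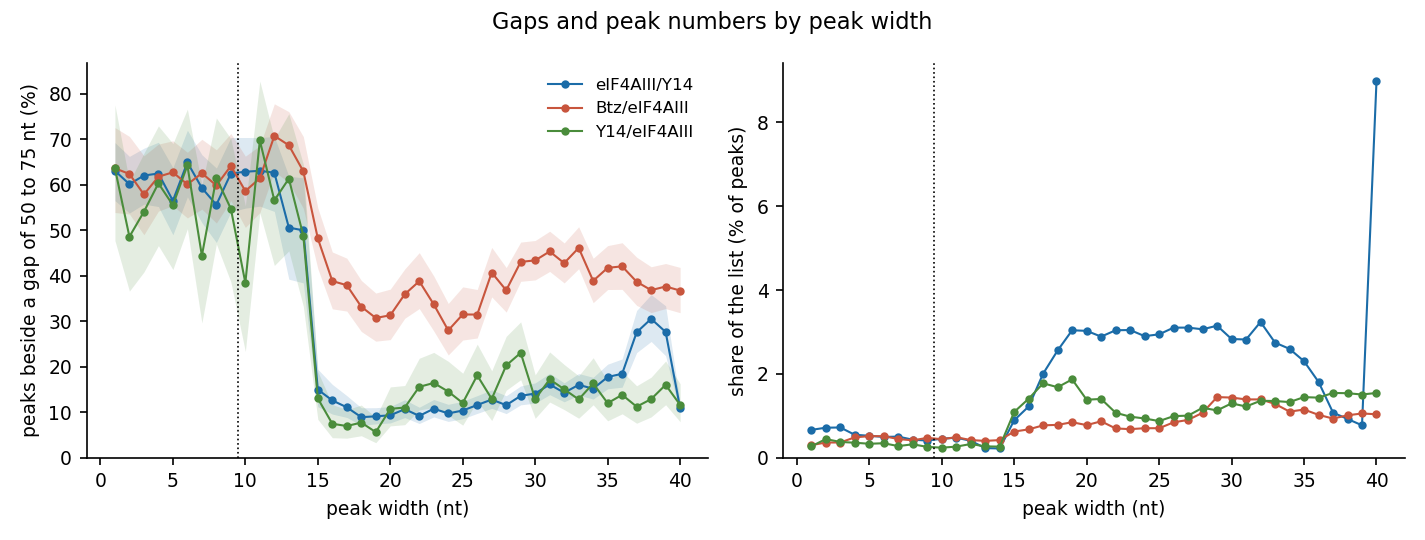
Left, share of peaks beside a gap of 50 to 75 nt on either side (%) by peak width (nt), with exact 95% intervals over peaks as shading. Right, share of all peaks of the list (%) that have each width. The dotted line marks the limit of 10 nt, and the step in both panels falls between 14 and 15 nt.

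Across a gap of 50 to 75 nt the tiny peak was mostly less deep than its neighbour in eIF4AIII/Y14, less so in Btz/eIF4AIII, and seldom in Y14/eIF4AIII. Of tiny peaks with such a gap on 1 side, 639 of 1016 (62.9%, 59.8 to 65.9%) were less deep in eIF4AIII/Y14, against 45.3% of all its peaks with such a gap. In Btz/eIF4AIII 435 of 814 were (53.4%, 49.9 to 56.9%), against 44.7%. In Y14/eIF4AIII 66 of 264 were (25.0%, 19.9 to 30.7%), against 37.3%. The shares over all peaks are set largely by how many pairs are equal, as each unequal pair holds 1 less deep and 1 deeper peak. A share below them thus does not mean that tiny peaks were the deeper ones.

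Many tiny peaks had exactly the depth of the peak across the gap. This held for 246 tiny peaks in eIF4AIII/Y14 (24.2%), against 9.12% of all peaks with such a gap. It held for 240 in Btz/eIF4AIII (29.5%, against 12%) and for 149 in Y14/eIF4AIII (56.4%, against 26.1%). Among tiny peaks whose depth differed from that of the neighbour, the tiny peak was the less deep of the pair in 83.0%, 75.8% and 57.4%. Low depth makes equal values easier to reach, so the share was also taken at 50 reads per base or more. There, 13.1%, 19.9% and 40.4% of the tiny peaks downstream of the gap had the depth of the neighbour, against 5.61%, 8.51% and 18.7% of all such peaks at that depth. Upstream of the gap it was 51.0%, 33.8% and 48.5% of the tiny peaks, against 4.57%, 8.02% and 18.4%.

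The side of the gap went with depth in each list. Downstream of the gap, where most tiny peaks lay, 69.8%, 58.0% and 32.9% were less deep than the neighbour, and the median log2 ratio of tiny peak to neighbour was -0.98, -0.05 and 0.00. The median depths of tiny peak and neighbour on this side were 39 and 122 reads per base for eIF4AIII/Y14. Btz/eIF4AIII had 20.5 and 54.0, and Y14/eIF4AIII had 18.5 and 24.1. Upstream of the gap only 26.99%, 34.2% and 12% were less deep, 53.4%, 41.3% and 65.0% were equal, and the median log2 ratio was 0.00 in each list.

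**Figure D3:**
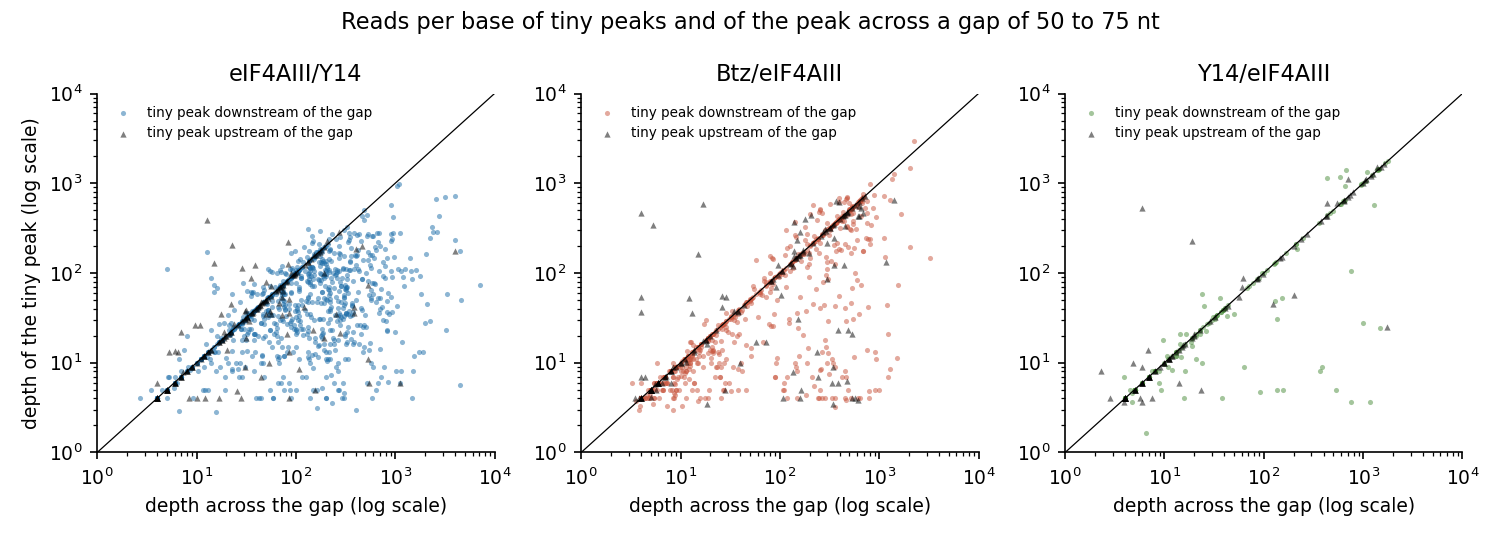
Depth (reads per base) of each tiny peak against that of the peak across its gap of 50 to 75 nt, both on log scales, 1 panel per list. Circles are tiny peaks downstream of the gap, triangles those upstream of it, and the line marks equal depth. Most eIF4AIII/Y14 circles lie below the line, whereas points of Y14/eIF4AIII gather along it.

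The neighbour across the gap had a usual width. Its median width was 37, 50 and 40 nt in the 3 lists, and the widths of tiny peak and neighbour together had a median of 41, 56 and 44.5 nt. The median widths over all peaks were 31, 53 and 48 nt. Tiny peaks downstream of gaps of 76 to 99 nt had depths much like those at shorter gaps, with 76.04%, 62.4% and 36.8% less deep and 15.6%, 24.7% and 47.4% equal. At gaps of 100 to 500 nt an equal depth was seen for 20.9%, 18.9% and 35.0% of tiny peaks downstream of the gap but for 5.46%, 2.60% and 21.3% of those upstream of it.

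A few tiny peaks stood between a pair of short gaps, as the middle of 3 peaks. The eIF4AIII/Y14 list held 55 of these, 3.13% of its tiny peaks against 1.12% of all its peaks. Btz/eIF4AIII held 61, 4.30% against 2.69%, and Y14/eIF4AIII held 8, 1.65% against 0.646%. They were less deep than both neighbours in 24, 25 and 2 cases and equal in depth to both in 0. Their upstream gap recurred with both borders in another list in 41, 8 and 4 cases, and their downstream gap in 0, 0 and 1. Over all peaks between such gaps the upstream gap recurred for 28.5%, 18.7% and 26%, and the downstream gap for 20.3%, 15.7% and 29.8%. Standing between such gaps was not particular to tiny peaks, as 4.14%, 5.15% and 1.80% of peaks of 10 to 14 nt did so.

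Tiny peaks of eIF4AIII/Y14 and Y14/eIF4AIII often lay inside a peak of another list, while for those of Btz/eIF4AIII the rule of cover set whether they did so more or less than its peaks as a whole. In eIF4AIII/Y14 the middle base of 909 tiny peaks was covered on the same strand by either other list, 51.7% (49.3 to 54.0%) against 41.6% of all peaks. In Y14/eIF4AIII 277 were covered, 57.2% (52.7 to 61.7%) against 45%. In Btz/eIF4AIII 336 were covered, 23.7% (21.5 to 26.0%) against 32.2%. With every base required inside 1 peak of another list, the share of Btz/eIF4AIII turned, at 20.2% of tiny peaks against 9.44% of all peaks, whose greater width makes this rule harder to meet. With any 1 base it was 27.5% against 45.5%. On the opposite strand the middle base was covered for 17, 9 and 14 tiny peaks of eIF4AIII/Y14, Btz/eIF4AIII and Y14/eIF4AIII. These are 0.966%, 0.635% and 2.89%, against 0.661%, 0.448% and 1.08% of all peaks.

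The Btz/eIF4AIII list gave most of this cover. It covered 48.9% of the tiny peaks of eIF4AIII/Y14 (37% of all its peaks) and 49.8% of those of Y14/eIF4AIII (36.9% of all), with peaks of a median width of 29 and 39 nt. The eIF4AIII/Y14 list covered 18.9% of the tiny peaks of Btz/eIF4AIII (24.6% of all its peaks) and 31.0% of those of Y14/eIF4AIII (23.9% of all), with median widths of 9 and 10 nt. The Y14/eIF4AIII list, the smallest, covered 10.7% of the tiny peaks of eIF4AIII/Y14 (13.1% of all its peaks) and 7.76% of those of Btz/eIF4AIII (13.2% of all). The lists differ in number of peaks and in width, and their part in this cover was not tested.

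**Figure D4:**
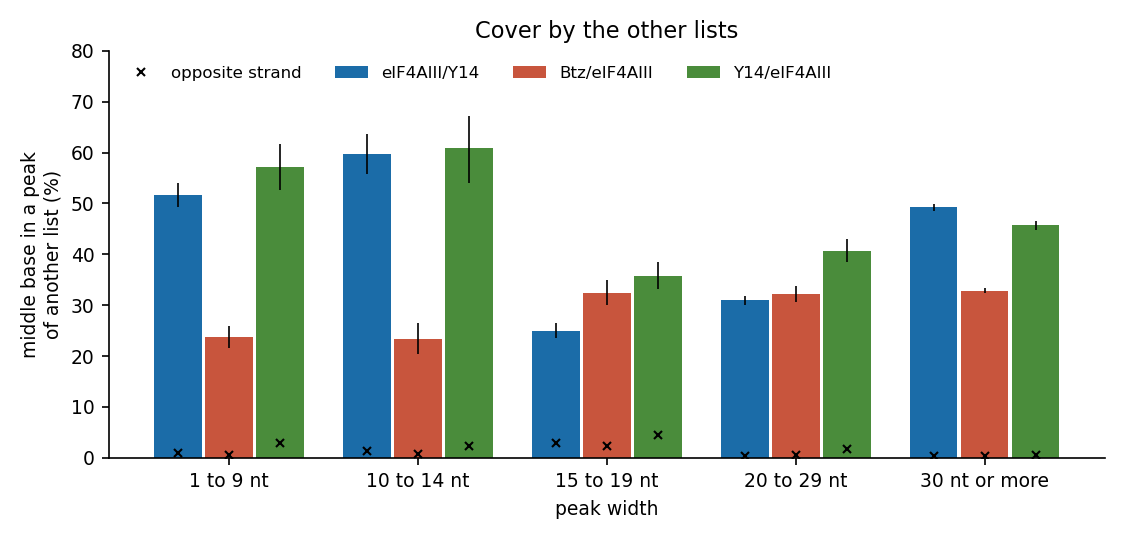
Share of peaks (%) whose middle base lay in a same-strand peak of either other list, by peak width and list. Bars carry exact 95% intervals over peaks, and crosses give the same share on the opposite strand. In eIF4AIII/Y14 and Y14/eIF4AIII the classes of 1 to 9 and 10 to 14 nt stand above those of 15 to 19 nt, whereas in Btz/eIF4AIII they stand below.

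Where a tiny peak was covered, it mostly shared the border that faced its gap with the covering peak, to the base. For tiny peaks of eIF4AIII/Y14 beside a gap of 50 to 75 nt and covered by Btz/eIF4AIII, the border at the gap was the same in 462 of 513 (90.1%, 87.1 to 92.5%). The border that faced away was the same in 62 (12.1%, 9.39 to 15.2%), and the Btz/eIF4AIII peak reached a median of 18 nt beyond it. For tiny peaks of Y14/eIF4AIII covered by Btz/eIF4AIII the border at the gap was the same in 129 of 136 (94.9%, 89.7 to 97.9%) and the far border in 16 (11.8%), with a median reach of 32 nt beyond it.

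The other 4 pairs of lists went the same way. The border at the gap was the same in 74.1% of 112 tiny peaks of eIF4AIII/Y14 covered by Y14/eIF4AIII, the lowest share of the 6 pairs. It was the same in 87.8% of 139 and 87.5% of 56 tiny peaks of Btz/eIF4AIII covered by eIF4AIII/Y14 and by Y14/eIF4AIII, and in 87.4% of 87 tiny peaks of Y14/eIF4AIII covered by eIF4AIII/Y14. The far border was the same in 19.6 to 25.0% over these 4 pairs. For covered peaks of 30 nt or more beside such a gap, the border at the gap was the same in 30.0 to 50.6% over the 6 pairs.

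**Figure D5:**
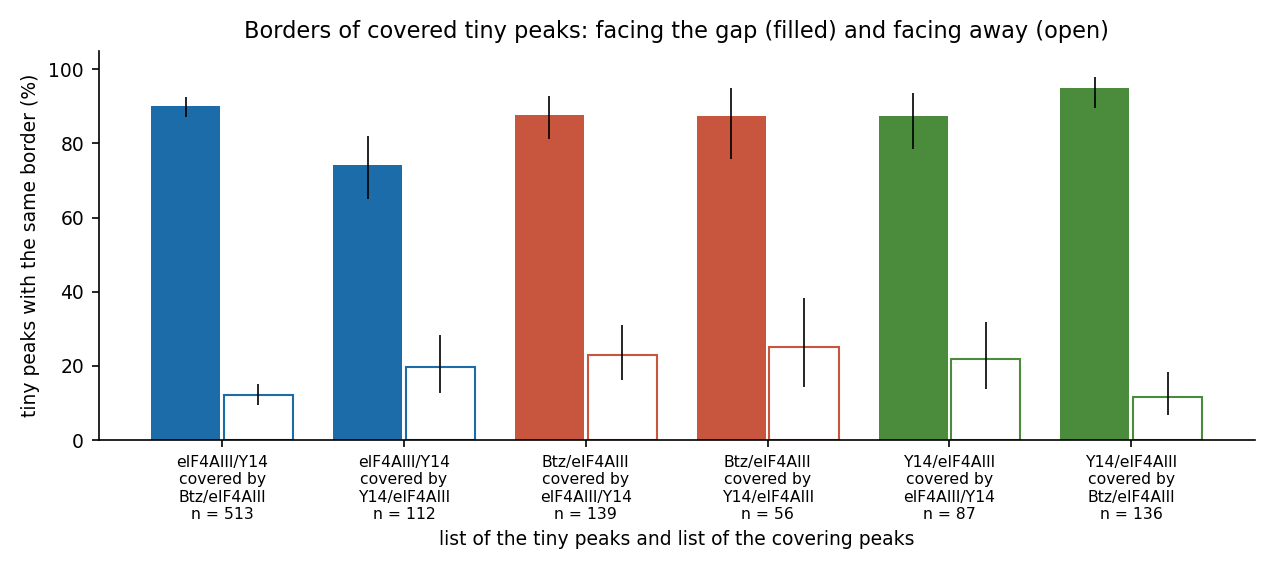
Share of covered tiny peaks (%) whose border was the same, to the base, as that of the covering peak, for tiny peaks with a gap of 50 to 75 nt on 1 side. Filled bars are the border facing the gap, open bars the border facing away, with exact 95% intervals over peaks. Filled bars stand at 74.1 to 94.9% and open bars at 11.8 to 25.0%.

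The shared border was mostly the upstream one of the tiny peak. Over all covered tiny peaks of eIF4AIII/Y14, 96.5% of 860 shared at least 1 border with the covering Btz/eIF4AIII peak. Only the upstream border was shared by 85.8%, only the downstream one by 5.23%, both by 5.47% and neither by 3.49%. In the reverse direction, tiny peaks of Btz/eIF4AIII inside eIF4AIII/Y14 peaks shared only the upstream border in 55.2% of 268 cases, only the downstream one in 15.7%, and neither in 11.6%. Tiny peaks of Y14/eIF4AIII inside Btz/eIF4AIII peaks shared only the upstream border in 57.3% of 241 cases and only the downstream one in 29.05%. The trait was not particular to tiny peaks. Of 355 covered peaks of 10 to 14 nt of eIF4AIII/Y14, 96.6% shared at least 1 border with the Btz/eIF4AIII peak, and 85.1% only the upstream one. Peaks of 30 nt or more of eIF4AIII/Y14 shared only the upstream border of the covering Btz/eIF4AIII peak in 8.37% of cases and only the downstream one in 25.7%.

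Whole gaps recurred as well. A tiny peak was counted here if a gap of up to 2000 nt on either side of it had both borders at the same bases in another list. This was so for 714 of 1722 tiny peaks of eIF4AIII/Y14 with such a gap, 41.5% (39.1 to 43.8%) against 9.79% of all its peaks with such a gap. In Btz/eIF4AIII it was so for 262 of 1392, 18.8% (16.8 to 21.0%) against 10.5%. In Y14/eIF4AIII it was so for 212 of 458, 46.3% (41.6 to 51.0%) against 10.3%. The recurring gap was upstream of the tiny peak in 671, 222 and 138 cases and downstream of it in 43, 40 and 74. Recurrence was not particular to tiny peaks. With all peaks under 15 nt taken, which adds those of 10 to 14 nt, the shares were slightly higher, at 43.5%, 19.3% and 47.3%.

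Counted by gap, those of 50 to 75 nt recurred most. With a tiny peak downstream of the gap, 476 of 900 recurred in eIF4AIII/Y14 (52.9%, 49.6 to 56.2%), against 29.4% of all its gaps of that length. In Btz/eIF4AIII 148 of 719 recurred (20.6%, 17.7 to 23.7%), against 18.9%, a share inside the interval. In Y14/eIF4AIII 96 of 165 recurred (58.2%, 50.3 to 65.8%), against 34.8%. With the tiny peak upstream of the gap the shares were 13.8% of 210, 11.6% of 215 and 41.6% of 101, and with no tiny peak at a border 21.9%, 18.9% and 29.9%.

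At longer gaps the recurrence with a tiny peak downstream was less frequent, but was a larger multiple of that with no tiny peak. For gaps of 100 to 500 nt it was 33.1%, 15.6% and 27.6%, where gaps with no tiny peak recurred in 1.39%, 2.48% and 2.18%. For gaps over 500 and up to 2000 nt it was 25.1%, 10.9% and 16.1%, against 1.23%, 2.27% and 0.990%. Beyond 2000 nt 31 of 201 recurred in eIF4AIII/Y14 (15.4%), 6 of 172 in Btz/eIF4AIII (3.49%) and 7 of 136 in Y14/eIF4AIII (5.15%), against 0.622%, 1.21% and 0.514% with no tiny peak. With the tiny peak upstream, gaps of 100 to 500 nt recurred in 1.10%, 1.30% and 13.5%. Those over 500 and up to 2000 nt did so in 1.07%, 2.38% and 9.09%, and longer ones in 1.72%, 2.49% and 2.74%.

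The width of the peak at a recurring border can be set side by side, although the tiny peak was picked for its width in 1 list and not in the other. At 680 gaps that eIF4AIII/Y14 shared with Btz/eIF4AIII, with 1 tiny peak in the former, the peak at that border had median widths of 4 and 26 nt, and was wider in Btz/eIF4AIII at 598. At 181 gaps that Y14/eIF4AIII shared with Btz/eIF4AIII the medians were 5 and 39 nt. At 222 gaps with the tiny peak in Btz/eIF4AIII, the peak in eIF4AIII/Y14 had a median width of 6 nt, was itself tiny at 152 (68.5%), and was wider at 113 and narrower at 70. Tiny peaks identical in both borders numbered 47 between eIF4AIII/Y14 and Btz/eIF4AIII, 28 between eIF4AIII/Y14 and Y14/eIF4AIII and 25 between Btz/eIF4AIII and Y14/eIF4AIII, of which 7 were in all 3 lists. Peaks of any width identical between the same pairs of lists numbered 362, 175 and 276. Of covered tiny peaks, 5.47 to 22.7% over the 6 pairs were identical, against 2.80 to 5.77% of all covered peaks. Covered peaks of 15 to 19 nt were identical more often than tiny ones in each pair, in 10.3 to 41.2%.

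Every member can be placed by these measures, taken in turn. A gap of up to 2000 nt recurred for 714 tiny peaks of eIF4AIII/Y14, 262 of Btz/eIF4AIII and 212 of Y14/eIF4AIII. A longer gap alone recurred for a further 39, 12 and 12, only a border was shared with a covering peak for 129, 53 and 48, and the middle base was covered with no shared border for 42, 42 and 10. None of these held for 835 (47.5%), 1049 (74.0%) and 202 (41.7%). Over all peaks of the 3 lists none held for 57.8%, 64.7% and 54.4%. Among tiny peaks beside a gap of 50 to 75 nt none held for 473 of 1071 (44.2%), 659 of 875 (75.3%) and 108 of 272 (39.7%). These shares are close to those over all tiny peaks of the lists.

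Single peaks show the range of these patterns, and are the deepest of their kind in each list. The deepest tiny peak with a recurring gap in eIF4AIII/Y14 was the single base chr4:975676-975676 (minus strand), at 1140 reads per base, downstream of a gap of 1494 nt. The peak across the gap had 990 reads per base over 47 nt. In Btz/eIF4AIII the same gap had a peak of 15 nt and 40.3 reads per base at this border and one of 47.1 across. The depth was thus close on both sides of the gap within each list, although the lists differed widely in depth.

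The next was chr2R:6321676-6321680 (plus strand), 5 nt wide at 986 reads per base, against 1093 across a gap of 58 nt. Btz/eIF4AIII held the same gap, with 183 reads per base over 7 nt and 393 across. The next, chr3LHet:2455154-2455155 (plus strand), was 2 nt wide at 716.5 reads per base, against 3966 across a gap of 60 nt. In Btz/eIF4AIII this gap had 94.6 reads per base over 14 nt and 98.97 across, so the uneven depth was seen in eIF4AIII/Y14 and not in Btz/eIF4AIII. The deepest beside a gap of 50 to 75 nt that no other list held was chr3L:1875216-1875218 (minus strand), at 925 reads per base against 1036 across 64 nt.

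In Btz/eIF4AIII the deepest of all tiny peaks was chr3R:24947332-24947338 (minus strand), 7 nt at 2976 reads per base, downstream of a gap of 68 nt with 2258 across. In eIF4AIII/Y14 the same gap had 21 reads per base over 3 nt and 38.4 across. The order of both sides was thus opposite in the lists. At chr2R:11944431-11944439 (plus strand) 1096 reads per base stood against 1027 across a gap of 300 nt, and eIF4AIII/Y14 had the same 9 nt at 10 reads per base, with 25.05 across. At chr3L:20344683-20344688 (plus strand) 843 reads per base stood against 841 across a gap of 61 nt, and Y14/eIF4AIII covered its middle base with a peak of 6 nt at 939 reads per base. The eIF4AIII/Y14 list held the same gap, with 27.8 reads per base over 9 nt and 44.8 across. A peak with a gap that no other list held, chr3L:16842935-16842942 (plus strand), had 1469 reads per base against 2045 across 62 nt.

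In Y14/eIF4AIII the deepest tiny peak lay upstream of its recurring gap. It was chr2L:524053-524059 (plus strand), 7 nt at 2363 reads per base, with 3554 across a gap of 1332 nt, and Btz/eIF4AIII had 85.1 reads per base over 32 nt at this border and 596 across. The eIF4AIII/Y14 list did not share this gap, but covered the middle base with a peak of 41 nt at 3630 reads per base. At chr3L:11821215-11821217 (minus strand) 1787 reads per base stood against 1788 across a gap of 70 nt, where Btz/eIF4AIII had 715 over 29 nt and 3574 across. At chr2L:16744124-16744130 (plus strand) 1663 reads per base stood against 1644 across a gap of 56 nt, and eIF4AIII/Y14 had the same 7 nt at 4 reads per base, with 58.3 across. These last peaks and their neighbours were nearly equal in depth in Y14/eIF4AIII and unequal in the other list. The deepest beside a gap of 50 to 75 nt that no other list held, chr2L:7788151-7788156 (minus strand), had 1517 reads per base, and so did the peak across its gap of 60 nt.

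The deepest isolated tiny peak was the same place in eIF4AIII/Y14 and Btz/eIF4AIII. It was chr3R:19485714-19485717 (minus strand) at 377 reads per base in eIF4AIII/Y14, 6219 nt from its nearest peak, and 1 nt wider at 2953 reads per base in Btz/eIF4AIII. A peak of 4 nt at 64 reads per base covered it in Y14/eIF4AIII. The deepest isolated one of Y14/eIF4AIII was chr2R:16475248-16475249 (plus strand), 2 nt at 1878 reads per base, 7810 nt from its nearest peak and covered by neither other list.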

How the data were processed

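The deposited lists give each peak's position, strand and 1 signal value. Depth times width was whole, within 0.001, for 100% of peaks in each list, so this signal was read as the mean number of reads per base, with no scaling to library size. Track lines name the deposited lists as clipped and merged, per the file headers. The submitters' processing notes list Bowtie with SAMtools, and give neither version nor role. The sources used here name no peak caller and no threshold. They state no build either, and release 5 was read from the sequence names. The number of reads per library was not used here.

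Peaks were compared in Python 3.11.15 with numpy 2.4.6, pandas 2.3.3, scipy 1.17.1 and matplotlib 3.10.9, after the search for gaps, sides, cover and borders was checked on simulated peaks. Intervals are exact binomial ones at 95%. Depths were called equal only where they were identical, with no tolerance. Shares under other widths, gap lengths, cover rules and border tolerances, on the main chromosome arms and in the deeper tiny peaks were also computed. Named peaks are, per list, the 3 deepest with a recurring gap, the deepest beside a gap of 50 to 75 nt that no other list held, and the deepest with no peak within 2000 nt. The members, measures and rules were chosen with earlier results of these data known. No sequences are shown, because a release 5 genome was not used here.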

Additional observations from a re-analysis of the deposited data

How the results depend on the processing

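Of 108 recomputed values, 89 stayed within the interval of the value reported. With tiny peaks set as under 8 nt, they made up 4.19%, 3.00% and 2.42% of eIF4AIII/Y14, Btz/eIF4AIII and Y14/eIF4AIII; under 12 nt, 5.97%, 4.83% and 3.52%; under 15 nt, a limit chosen after seeing the data, 6.83%, 6.08% and 4.39%. A gap of 45 to 80 nt bordered 64.5%, 65.2% and 61.4% of tiny peaks, as a wider range takes in more gaps. Tiny peaks at or above the median depth of the tiny peaks of their list lay downstream of the gap in 86.3% of cases in eIF4AIII/Y14. For the same deeper peaks the middle base was covered in 56.2% (eIF4AIII/Y14) and 64.9% (Y14/eIF4AIII), and a gap recurred in 46.4% and 52.0%; the cause was not tested. In Btz/eIF4AIII every base was covered in 20.2% and at least 1 base in 27.5%; with every base required, tiny peaks stood above all peaks (9.44%), where by the middle base they stood below. On the main chromosome arms alone, with borders allowed to differ by 1 base, or with neighbours of 10 nt or more only, no value moved beyond its interval.

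No paired analysis was possible because each purification had 1 library and no test was made. Without replicates, differences between lists cannot be set against the spread between libraries, and library size and purification cannot be told apart, nor nuclease dose for Y14/eIF4AIII. A place with no peak in a list was not separated from one under its unstated threshold.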
